A study of Ovis aries with 36 samples.

Results

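Along a stretch of 29906 bases of sheep chromosome 3 without an Ensembl gene, 10 unannotated loci were counted in 9 lamb muscles, and their levels rose and fell together. They were highest on average in the Longissimus lumborum and lowest in the Supraspinatus and Rectus femoris, and they were higher in animals 2 and 3 than in animals 1 and 4 in most muscles. The loci were chosen by position. All loci without an Ensembl identifier whose span lay wholly within a window of 60 kb of chromosome 3 (Oar_v3.1), from 19.3 kb before the stretch to 10.8 kb after it, were taken, which gave 10 of 31136 loci in the series and 10 of its 6373 loci without an Ensembl identifier. The window was drawn around XLOC_021977, and the stretch was known from the comparison of Semimembranosus with Supraspinatus. Values in these 2 muscles are therefore given as a description, and neither is compared in any test between muscles.

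The series holds 36 samples, 9 muscles from each of 4 lambs, so that every muscle had 4 biological replicates. From the back and loin came Longissimus lumborum (LL) and Psoas major (PM), from the shoulder Supraspinatus (SS), and from the rump Gluteus medius (GM). The thigh gave the cranial Gluteobiceps (GB), Rectus femoris (RF), Adductor (AD), Semitendinosus (ST) and Semimembranosus (SM). Each was sampled at its mid superficial belly directly after slaughter. All muscles came from the same lambs, Poll Dorset crosses aged 14 months that were not related to each other and had been kept on pasture with a soy and sorghum supplement. The labels give no treatment.

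An unannotated locus is a region where assembled reads form transcripts that the reference annotation lacks. Such units can be unlisted non-coding RNAs, exons or ends of genes whose models are incomplete, or transcribed repeats. Skeletal muscles differ in their mixture of slow oxidative and fast glycolytic fibers, and in bulk tissue such as this, a lower level can come from fewer cells of a type or from less RNA per cell, which cannot be told apart.

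The depth was 3699148 to 6427422 counts per sample, of which the 4 most counted loci held 65.7% to 78.3%. A level is given below in CPM, the counts of a locus scaled for library size by the TMM method, where 3 counts correspond to 0.366 to 1.02 CPM. As a check of the tissue, 4 slow-fiber genes, TNNT1, TNNC1 and TNNI1 (slow troponin subunits) and MYL3 (a slow and cardiac myosin light chain), were looked up, and they were counted in 36 of 36 samples, and each was highest on average in PM and lowest in ST. TNNT1, for example, was at 256 ± 20.9 CPM in PM, 225 ± 54.7 in SS, 74.1 ± 37.8 in LL and 23.2 ± 6.96 in ST (SD, n = 4). The slow-fiber genes MYL2 and MYH7 and markers of other cell types were not analysed here.

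The 10 loci carried consecutive numbers from XLOC_021975, which began at base 138819344, to XLOC_021984, which ended at base 138849249. XLOC_021977 was the longest and spanned chromosome 3, bases 138823794 to 138828966, a length of 5173 bases. XLOC_021981 was next at 3767 bases (138839190 to 138842956), and XLOC_021983 was the shortest at 592 bases (138845499 to 138846090). Together the spans covered 22721 bases, 76.0% of the stretch. The gaps between neighbors had a median of 436 bases, 7 of 9 were shorter than 1 kb, and the widest, of 3176 bases, lay between XLOC_021979 and XLOC_021980.

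The nearest locus with an Ensembl identifier ended 102014 bases before the stretch (ENSOARG00000019451), and the next one after it began 261147 bases away (ENSOARG00000017729). The stretch therefore lay outside annotated exons, introns and UTRs, in an interval of 393067 bases between the annotated loci on each side. The strand setting of the counting is not given in the sources used here, so transcripts from opposite strands cannot be told apart.

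All 36 samples together held 3439 counts in the 10 loci, which was 0.00171% of all counts. XLOC_021977 took 917 of them, XLOC_021981 took 622, and XLOC_021983 had the fewest, at 65. Per length the loci were much more alike. Counts per kb of span, summed over the samples, ran from 110 for XLOC_021983 to 177 for XLOC_021977, a 1.61-fold range, and the median of the 3158 other loci without an Ensembl identifier that were tested was 143. The plot of levels along the stretch shows this profile for each muscle.

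**Figure D1:**
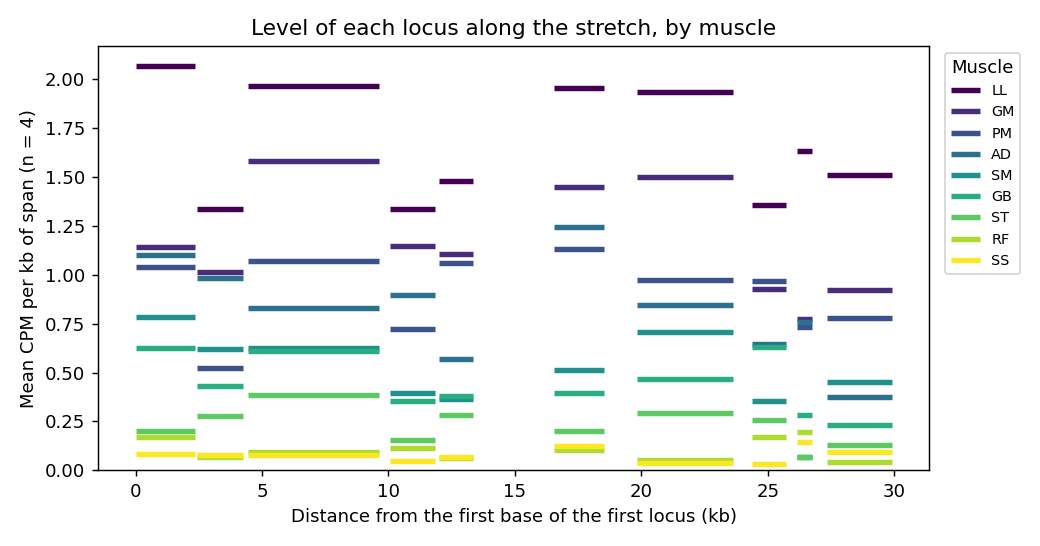
Mean CPM per kb of span (vertical axis, n = 4 animals per muscle) of each of the 10 loci, drawn as horizontal bars over the span they cover, against the distance in kb from the first base of XLOC_021975. LL is the top bar at each of the 10 loci, and RF or SS is the lowest bar at each except XLOC_021983, where it is SM.

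XLOC_021977, the locus with most counts, was measured above 0 in 34 of 36 samples. In LL its level in animals 1 to 4 was 5.38, 15.9, 14.6 and 4.78 CPM. In GM it was 2.29, 12.2, 15.3 and 3.05 CPM. These 2 muscles had the highest means, 10.2 ± 5.90 and 8.20 ± 6.52 CPM (SD, n = 4), with ranges that overlapped widely.

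PM gave 1.12, 11.7, 6.42 and 2.87 CPM in animals 1 to 4, with a mean of 5.53 ± 4.67 (SD, n = 4). AD gave 2.11, 7.14, 6.58 and 1.29 CPM, with a mean of 4.28 ± 3.01. SM gave 0.684, 7.25, 3.75 and 1.27 CPM, with a mean of 3.24 ± 2.99. The ranges of these muscles overlapped one another and those of LL and GM, with animals 2 and 3 at the top of each muscle and animals 1 and 4 at the bottom.

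GB was at 0.711, 3.38, 7.12 and 1.41 CPM in animals 1 to 4, a mean of 3.16 ± 2.87 (SD, n = 4). ST was at 0.533, 2.19, 4.81 and 0.431 CPM, a mean of 1.99 ± 2.04. In both muscles animal 3 was the highest, and animals 1 and 4 were the lowest.

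RF was at 0, 0.438, 1.34 and 0.182 CPM, a mean of 0.489 ± 0.593 (SD, n = 4). SS was at 0, 0.146, 0.889 and 0.580 CPM, a mean of 0.404 ± 0.407. Every RF and SS sample lay below every LL and GM sample. SM and SS, the comparison that brought the stretch to notice, held 75 and 9 counts in all, and 51 of the 75 came from animal 2.

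XLOC_021981, the locus with the next most counts, went the same way. Its bases are those of an unannotated unit that the study lists as higher in SM than in SS. The study places that unit in an intergenic region near COL2A1, a collagen gene. In LL it was at 4.13, 12.2, 10.6 and 2.23 CPM in animals 1 to 4, and in GM at 2.00, 8.10, 10.2 and 2.32 CPM. In PM it was at 1.12, 7.18, 4.77 and 1.58 CPM, and in AD at 2.11, 5.39, 4.57 and 0.646 CPM. In SM it was at 0.342, 6.25, 3.75 and 0.318 CPM, and in GB at 0.178, 1.97, 4.62 and 0.282 CPM. LL and GM again held the highest means, 7.29 ± 4.85 and 5.65 CPM, and animals 2 and 3 were above animals 1 and 4 in each of these 6 muscles.

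In ST XLOC_021981 was at 0, 1.75, 2.65 and 0 CPM, and in RF at 0, 0.585, 0.167 and 0 CPM, with 5 counts in the 4 RF samples. In SS it was at 0, 0, 0.355 and 0.193 CPM, which is 3 counts in all. At this depth no fold against SS is given for this locus.

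The other 8 loci had LL means between 0.966 CPM (XLOC_021983) and 4.85 CPM (XLOC_021975), and LL was the muscle with the highest mean for each of the 10 loci. The lowest mean was in SS for 5 loci, in RF for 4 and in SM for XLOC_021983. XLOC_021976, XLOC_021979 and XLOC_021984 had only 3, 2 and 3 counts in the 4 RF samples, and no fold against RF is given for them.

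**Figure D2:**
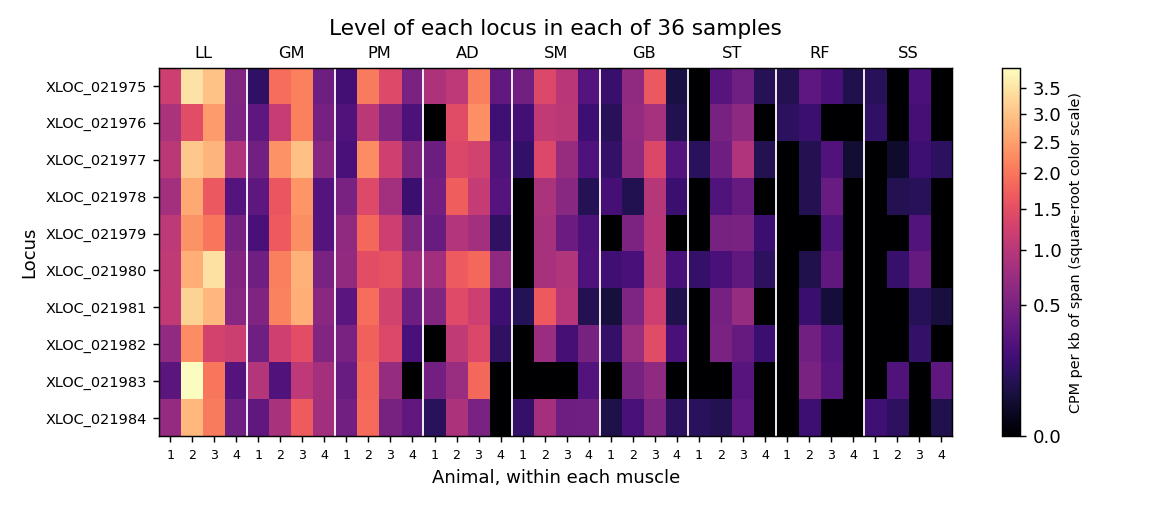
CPM per kb of span, on a square-root color scale from 0 (black), of the 10 loci (vertical) in 36 samples (horizontal, animals 1 to 4 within each muscle, muscles ordered by the summed mean). Animals 2 and 3 form the bright columns within most muscles, the LL columns are brightest on average, and most cells of RF and SS are dark.

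The 2 most counted loci kept similar proportions in most muscles. XLOC_021977 held 25.7% of the counts of the 10 loci in LL, 28.4% in GM, 22.8% in AD, 26.5% in PM, 26.0% in SM and 29.9% in GB, against 26.7% overall. XLOC_021981 held 18.4%, 19.4%, 16.7%, 17.2%, 21.1% and 16.3% in the same muscles. In ST, with 125 counts in all, XLOC_021977 held 34.4%, and in RF and SS, with 54 and 37, such shares rest on a few counts per locus. The less counted loci varied more. XLOC_021976 held 9.71% in AD and 4.44% in PM, XLOC_021984 held 9.78% in LL and 5.42% in AD, and XLOC_021982 held 7.97% in GB and 4.15% in SM.

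The chi-square of the counts of the 10 loci over 36 samples was 1.10 per degree of freedom (315 degrees), where counting error alone gives about 1. With few counts per sample and locus, a value near 1 does not exclude differences in proportion. Taken singly against the sum of the others, the loci ran from 0.504 (XLOC_021979) to 1.84 (XLOC_021984) per degree of freedom (35 degrees each). The share of XLOC_021984 thus varied more than counting error alone gives on average, and this excess was not tested. For the 5 tested Ensembl loci before the stretch the measure over all of them was 2.55 (140 degrees). For the same differences this measure rises with depth, and those loci held 346 to 1591 counts each, against 65 to 917 for the 10 loci. The 2 values are therefore not directly comparable. Across the 36 samples, Pearson's r of log2 CPM between pairs of the 9 tested loci was 0.802 to 0.965 with a median of 0.880, and it was highest for XLOC_021977 and XLOC_021981. These samples share libraries, muscles and animals, so r is a description. The 10 loci are thus not 10 independent readouts of a muscle.

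Summed over the 10 loci, the level was 39.7 ± 25.3 CPM in LL, 28.9 ± 21.9 in GM, 21.3 ± 15.7 in PM and 18.9 ± 13.4 in AD (SD, n = 4). It was 12.8 ± 10.8 CPM in SM, 10.7 ± 10.8 in GB, 5.83 ± 5.78 in ST, 2.15 ± 2.05 in RF and 1.66 ± 1.26 in SS. Within every one of the 4 animals LL was the highest muscle for the sum, at 21.9, 64.9, 57.5 and 14.4 CPM. Single loci did not always follow. At XLOC_021977 GM was highest in animal 3, and at XLOC_021978, XLOC_021979 and XLOC_021983 LL was highest in only 2 animals. The ranges of LL, GM, PM, AD, SM and GB overlapped, whereas every ST, RF and SS sample lay below the lowest LL sample.

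**Figure D3:**
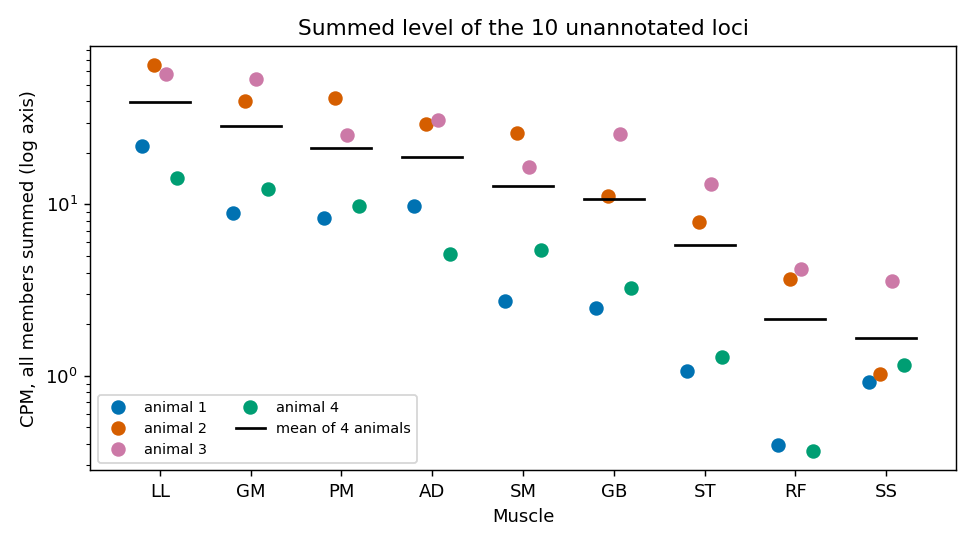
Summed CPM of the 10 loci (vertical, log axis) in each muscle (horizontal, ordered by mean), with a point per animal and a bar at the mean of 4 animals. Each animal's points fall from LL toward RF or SS, and animals 2 and 3 lie above animals 1 and 4 in 8 of 9 muscles, the exception being SS.

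To ask whether the muscles differed apart from the comparison that pointed to the stretch, the other 7 muscles were tested jointly with animal in the model. The joint test called 4.18% of the 12461 loci that passed the filter on low counts, at an FDR of at most 0.01. Of the 10 loci, 9 passed the filter and 9 were called. A locus can pass this filter through the muscle where it is high alone, and the loci share 1 profile, so the count is a description. XLOC_021983 did not pass. In a fit without the filter its adjusted p was 0.0267.

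By the edgeR quasi-likelihood F test, with p adjusted after Benjamini and Hochberg, the adjusted p of the joint test was 1.045e-08 for XLOC_021977 and 3.196e-08 for XLOC_021981. For the other tested loci it ran from 3.196e-08 (XLOC_021980) to 0.00417 (XLOC_021982). With animal left out of the model, 2 of the 9 stayed below 0.01, XLOC_021980 and XLOC_021984, and XLOC_021977 was at 0.0282. XLOC_021982 was above 0.01 whichever animal was left out, and XLOC_021976 was at 0.0346 without animal 3.

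Pairs of these muscles were then compared, where a call needed a log2FC beyond 1 in size and an FDR no higher than 0.01. As in the joint test, the loci share 1 profile and can pass the filter through their high muscles, so the counts of calls are a description. At XLOC_021976, XLOC_021979 and XLOC_021984 the calls against RF rest on 3, 2 and 3 RF counts. LL was higher than ST at 9 of 9 tested loci, where 0.835% of all tested loci were called in that direction, and higher than RF at 9, where 0.441% were. GM was higher than RF at 8 (0.233% of all) and than ST at 6 (1.52%). AD was higher than RF at 6 (0.136%), PM was higher than RF at 6 (0.353%), and LL was higher than GB at 5 (0.185%).

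There were fewer calls of AD over ST (2, against 0.706% of all), PM over ST (2, against 0.859%) and GB over RF (1, XLOC_021977, against 0.112%). This made 54 of 189 tests over the 21 pairs, and 0.554% of all locus and pair tests were called. Each of the 10 pairs with a call had ST, GB or RF as its lower muscle. The 54 calls became 23 without animal 2, 29 without animal 3 and 33 without animal 4, and 2 with no animal term.

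XLOC_021977 passed the thresholds in 8 of the 21 pairs. Its fitted log2FC was 4.44 for LL over RF (adjusted p = 5.557e-09, edgeR), 4.00 for GM over RF (2.154e-07), 3.50 for PM over RF (5.837e-06) and 3.09 for AD over RF (0.000157). It was higher in the first muscle in 4 of 4 animals in each of these pairs. The mean within-animal difference for LL over RF, which uses a prior count of 2 and so is smaller for a low locus, was 3.70 ± 0.295 (SE, n = 4) on the log2 scale.

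For LL over ST the log2FC of XLOC_021977 was 2.43 (adjusted p = 1.675e-05), for GM over ST 1.99 (0.000218), and for LL over GB 1.83 (0.000484), each with 4 of 4 animals in that direction. GB over RF, at 2.62 (0.00425), did not pass the thresholds with any animal left out, and AD over RF passed in 3 of 4 such fits, the exception being without animal 2. The other 6 passed in 4 of 4, and LL over RF then ran from 4.13 to 5.34.

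Neighbors in the order of means were not told apart by the test. For XLOC_021977 the log2FC was 0.44 for LL over GM (adjusted p = 0.513), 0.50 for GM over PM (0.490), 0.41 for PM over AD (0.800), 0.47 for AD over GB (0.486) and 0.60 for GB over ST (0.451). ST over RF, at 2.02, missed the threshold with an adjusted p of 0.0619. LL over AD, at 1.35, missed it with 0.0498, although LL was higher in 4 of 4 animals. SM, between AD and GB by its mean, and SS, at the bottom, were not tested.

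XLOC_021981 passed in 7 pairs, each of which XLOC_021977 also passed. Its log2FC was 5.13 for LL over RF (adjusted p = 4.407e-08), 4.75 for GM over RF (9.668e-07), 4.12 for PM over RF (3.1e-05) and 3.86 for AD over RF (0.000214). It was 2.75 for LL over ST (3.774e-05), 2.37 for GM over ST (0.000261) and 2.22 for LL over GB (0.000457). GB over RF, at 2.92, did not pass for this locus (0.0350). RF held 5 counts of it, 4 of them in animal 2. With an animal left out, the log2FC ran from 4.87 (without animal 3) to 6.29 (without animal 2) for LL over RF and from 4.32 to 5.97 for GM over RF. AD over RF passed in 3 of 4 such fits, the exception being without animal 3, and the other 6 pairs in 4 of 4.

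Among the 6 tested loci with more than 3 counts in RF, LL over RF ran from 2.92 (XLOC_021982) to 5.13 (XLOC_021981). Of these, XLOC_021978, XLOC_021980 and XLOC_021981 had 5 RF counts each and XLOC_021982 had 6. Both ends of that range therefore rest on few RF counts. LL over ST ran from 2.27 (XLOC_021976) to 3.34 (XLOC_021984) over the 9 tested loci, with a median of 2.75, against a median of 0.01 over all tested loci. In the other 11 pairs 0 of 99 tests of these loci passed, and 0.196% of all tests did. DESeq2 also called 0 there, the likelihood ratio test called 4, and 43 had an unadjusted p below 0.05 in the quasi-likelihood test.

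**Figure D4:**
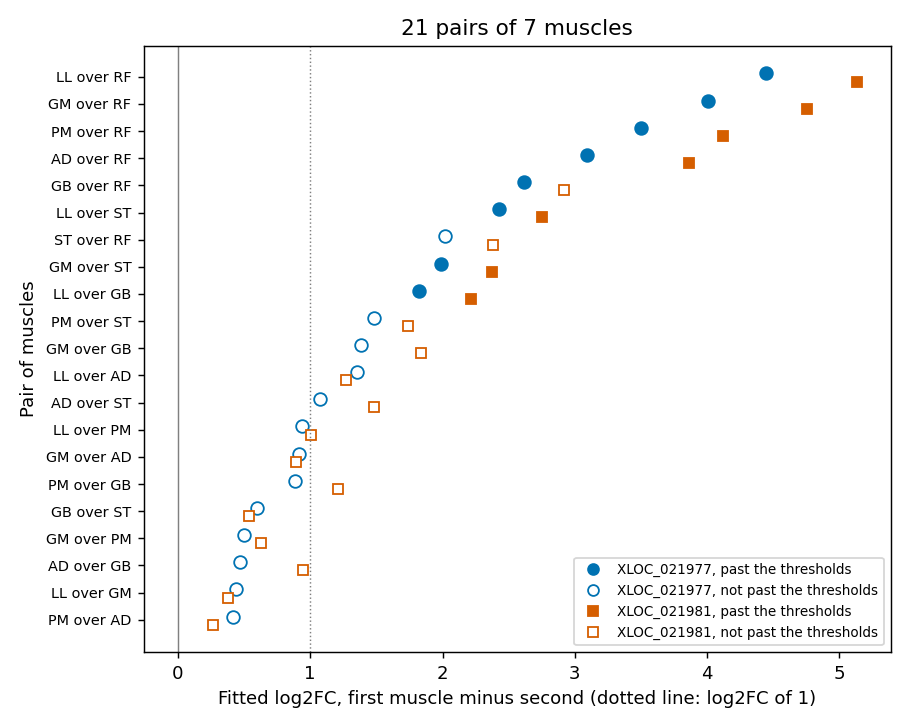
Fitted log2FC (horizontal, muscle with the higher mean minus the other) of XLOC_021977 (circles) and XLOC_021981 (squares) in the 21 pairs of 7 muscles (vertical, ordered by XLOC_021977). Filled symbols passed both thresholds, 8 circles and 7 squares, and the 4 pairs at the top all set a muscle against RF.

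The animals differed too. Summed over the 10 loci, the mean over 9 muscles was 25.2 CPM in animal 2 and 25.7 in animal 3, against 6.27 in animal 1 and 5.89 in animal 4. In RF, the 2 low animals had 2 counts each and the 2 high animals 25 each. For XLOC_021977 the means over muscles were 1.43, 6.70, 6.76 and 1.76 CPM in animals 1 to 4, and animals 2 and 3 were both above animals 1 and 4 in 8 of 9 muscles. In SS, animal 2 was below animal 4.

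A joint test of the 4 animals, added after these values had been seen, called 9 of the 9 tested loci, and 17.0% of all tested loci. It used all 36 samples, SM and SS among them, and the loci share 1 profile. The count and the adjusted p are therefore a description. Its adjusted p was 3.899e-10 for XLOC_021977 and 1.877e-09 for XLOC_021981 (edgeR's quasi-likelihood test), and the highest among the tested loci was 0.000232, for XLOC_021984. The median depth was 4316863 counts in animal 1, 6025354 in animal 2, 6004722 in animal 3 and 6080713 in animal 4. Totals in animal 1 reached 5317026 and overlapped those of animals 2 and 3, which began at 5144552 and 4989028. The part of depth was not tested. The libraries ran in 4 lanes, and which animals shared a lane is not given in the sources used here, so the part of the lane was not tested. The numbers mark individual lambs, and the labels give no other difference between them.

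Outside the window, the next unannotated locus after the stretch was again highest in LL. XLOC_021985 lay 12226 bases after XLOC_021984, at 138861476 to 138863155, and therefore just beyond the edge of the window. It had 199 counts, with means of 2.88 ± 1.35 CPM in LL, 1.41 ± 1.26 in PM, 1.05 ± 0.725 in GM, 0.0783 ± 0.0908 in RF and 0.0364 ± 0.0728 in SS (SD, n = 4). XLOC_021984, just inside, was at 3.89 ± 2.94 CPM in LL. XLOC_021986, 19020 bases after the stretch, had 81 counts, 26 of them in LL, and XLOC_021987, 64500 bases after it, had 102 counts, with its highest mean in AD.

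Before the window the nearest unannotated loci were much farther away. XLOC_021974, 254406 bases before the stretch, had 112 counts, with the highest mean in GM (0.923 CPM) and 0.381 CPM in LL. XLOC_020077, 222806 bases before it, had 5 counts, and its span was the same as that of ENSOARG00000019396, so reads there could have been counted under either. Set against the sum of the 10 loci, the chi-square per degree of freedom of XLOC_021985 was 1.23 (35 degrees), within the range of the 10 loci themselves.

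The tested annotated neighbors, which all lay before the stretch, were not called between muscles. The nearest annotated loci after it, ENSOARG00000017729 and ENSOARG00000017752, were not tested. Of 11 loci with an Ensembl identifier within 500 kb of the start of the window, 5 were tested. In the joint test of muscles 0 were called, with adjusted p of 0.201 to 0.632 in the edgeR test. Over all tested loci 4.18% were called, so 0 of 5 does not set these loci apart. DESeq2 and the likelihood ratio test also called 0 of them, and 0 had an unadjusted p below 0.05 in the quasi-likelihood test. In the 21 pairs 0 of their 105 tests passed with any of the 3 tools, and 14 had an unadjusted p below 0.05 in the quasi-likelihood test. Of all locus and pair tests 0.554% passed, so this count does not set them apart either.

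ENSOARG00000019451, the closest, was at 9.01 ± 4.24 CPM in LL, 7.46 ± 1.86 in RF and 5.76 ± 0.734 in SS (SD, n = 4). ENSOARG00000019400 was at 5.27 ± 1.88 CPM in LL and 4.56 ± 1.27 in RF. It was the only one of the 5 called between animals (adjusted p = 0.00104, edgeR), where 17.0% of all tested loci were called. ENSOARG00000019396 went the other way by its means, with 1.30 ± 0.323 CPM in LL and 2.69 ± 0.830 in RF, a difference that did not pass. Over 36 samples, Pearson's r with XLOC_021977 was -0.407 to 0.316 for these 5 loci. The table of gene names does not hold Ensembl identifiers, so these loci are not named.

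**Figure D5:**
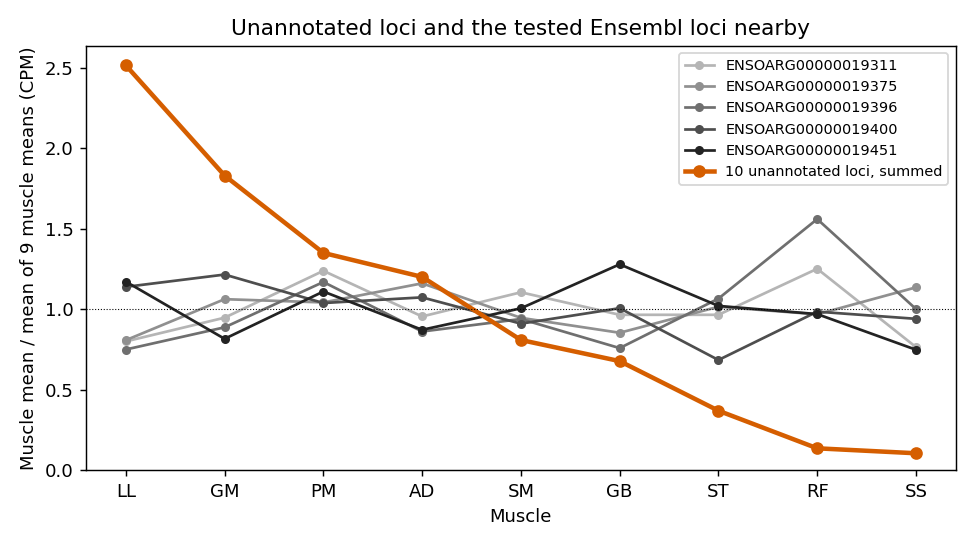
Mean CPM of each muscle divided by the mean of the 9 muscle means (vertical, linear from 0) for the 10 unannotated loci summed and for the 5 tested Ensembl loci, all before the stretch, by muscle (horizontal, ordered by the summed loci, n = 4 per point). The summed loci fall from LL to SS, whereas the Ensembl loci stay around 1 without that order.

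Over the 36 samples, the tested loci outside the window whose log2 CPM was most like that of XLOC_021977 were XLOC_021985 (Pearson's r = 0.884) and XLOC_029068 (r = 0.879), among 12452 loci. XLOC_029068 was the only locus on the unplaced scaffold JH921911.1, at bases 37 to 1768, and had 258 counts. Its mean was 2.75 ± 1.96 CPM in LL, 2.08 ± 1.71 in GM, 1.71 ± 2.06 in SM, 0.0783 ± 0.0908 in RF and 0.133 ± 0.267 in SS (SD, n = 4). Set against the sum of the 10 loci, its chi-square per degree of freedom was 1.99 (35 degrees), above that of each of the 10 loci. The r was lower for the next, XLOC_029768 on chromosome X (0.749), ENSOARG00000014735 on chromosome 19 (0.730) and XLOC_017089 on chromosome 22 (0.719).

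ENSOARG00000014735 had 45.9 ± 22.5 CPM in LL and 9.83 ± 0.671 in SS, and XLOC_017089 had 18.8 ± 11.5 in LL and 2.18 ± 1.14 in SS (SD, n = 4). The lowest r were -0.698 for ENSOARG00000002311 on chromosome 20 and -0.694 for ENSOARG00000013330 on chromosome 22. These r describe samples that share libraries and animals. With each animal's mean taken off first, r was 0.862 for XLOC_021985 (rank 2), 0.851 for XLOC_017089 (rank 3) and 0.843 for XLOC_029068 (rank 4), and a locus outside these 5 ranked first.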

How the data were processed

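Libraries of total RNA from 36 samples (9 muscles of 4 lambs) were sequenced as paired reads of 100 bases. Per the labels and the study's methods, the authors mapped reads with TopHat2 2.0.13 to the Oar_v3.1 genome, merged Cufflinks 2.2.1 assemblies with the Ensembl annotation, counted reads per locus with htseq-count (version not given in the sources used here), and deposited raw counts. Each table held 31530 entries for 31136 distinct loci, and each locus was used once. Assembly on these samples decided where a locus begins and ends, and how reads over overlapping loci were treated is not given in the sources used here. Start coordinates were shifted by 1 base to count from 1.

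Loci were filtered with filterByExpr by muscle (12461 left), TMM-normalized and fitted in edgeR 4.0.16 (R 4.3.3) with muscle and animal over all 36 samples. A quasi-likelihood F test compared 7 muscles jointly (6 degrees of freedom), and 21 pairs followed, with Benjamini-Hochberg adjustment over all tested loci. The common biological coefficient of variation was 0.195. Log2 CPM used a prior count of 2. Depth was 3699148 to 6427422 counts per sample, and the floor of 3 counts covers counting error only. The scripts were tested on simulated data.

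Samples were paired by the lamb's number in the labels. Deviations from muscle means correlated by 0.236 on average between samples of the same animal and by -0.0777 otherwise. Samples of a muscle differed beyond sampling noise in 54 of 54 pairs of animals (chi-square per degree of freedom 5.12 to 34.7). The window, its members and the gene lists were chosen with earlier results of these data known. The text names every locus in the window, the unannotated loci nearest to it, Ensembl loci within 500 kb of its start, and the 5 tested loci with the highest and the 2 with the lowest Pearson r with XLOC_021977. Slow-fiber genes were located by coordinates in the study's tables, and the other marker genes were not analysed here. Genome sequence was not used. Alternatives were the likelihood ratio test, DESeq2 1.42.0, RLE factors, other filters, 28 samples, no animal term, 4 most counted loci left out, summed members, an FDR of 0.05 and each animal left out.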

Additional observations from a re-analysis of the deposited data

Results flagged for a closer look

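In 10 of 99 groups of 4 animals, the highest sample stood apart from the other 3 by a gap, relative to the whole range, past Dixon's critical value. In 6 of them the other 3 animals had 0 counts, so the gap was the whole range by construction. That leaves 4 of 99. The usual rate of about 1 in 20 holds for independent, normally distributed values. These groups share animals and a profile and hold few counts, so that rate is no benchmark here. Animal 3 stood apart in GB for XLOC_021978 (1.73 CPM, the others 0.141 to 0.355) and XLOC_021980 (1.92 CPM, the others 0.355 to 0.423). It also did in SS for the sum of the 10 loci, at 3.55 CPM against 0.918 to 1.16. Animal 2 stood apart in PM for XLOC_021984, at 4.84 CPM against 0.860 to 1.24.

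The other 6 were samples with 1 to 3 counts where the other 3 animals had 0. They were XLOC_021979 in RF (0.334 CPM) and in SS (0.355 CPM), XLOC_021982 in SS (0.178 CPM) and XLOC_021983 in ST (0.166 CPM), all animal 3, XLOC_021983 in SM in animal 4 (0.159 CPM), and XLOC_021984 in RF in animal 2 (0.438 CPM).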

How the results depend on the processing

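The joint test of muscles called 9 of the 9 tested loci with the likelihood ratio test, DESeq2, RLE size factors, no filter, 28 samples, 4 most counted loci left out and an FDR of 0.05. Without the replicate block for animal it called 2, and 2 of the 54 pair calls were left, both LL over RF. Leaving out an animal gave 7 to 8 loci and 23 to 43 pair calls (33 without animal 4, 29 without animal 3 and 23 without animal 2, when 1 tested locus also failed the filter). Other settings gave 52 (DESeq2) to 75 (no filter) pair calls, and 0 changed direction among the calls with a refitted value (50 of 54 without animal 2, 53 with DESeq2 and 54 in each other fit that kept the 9 loci apart). Summing the counts into 1 locus left, by construction, 1 locus called between muscles and 1 between animals, with 10 pairs. The joint test of animals called 8 to 9 with an animal left out and 9 otherwise. A minimum of 10 counts in every sample left none of the 10 loci to test. Of the 5 loci most like XLOC_021977, 4 were shared with Spearman's rho, 2 with muscle means and 3 with animal means taken off. The shallow depth limits all of this, since RF and SS held 54 and 37 counts of the 10 loci in 4 samples each. Over all loci, joint calls of muscles went from 521 to 1028 with the likelihood ratio test, 1429 with no filter, 180 without the block, 1125 at an FDR of 0.05 and 234 to 362 with an animal left out. Pair calls went from 1450 to 2260, 4189, 583, 2776 and 793 to 1134 in the same settings, and to 644 with the minimum of 10 counts. Calls between animals went from 2122 to 3573 at an FDR of 0.05 and to 1157 to 1705 with an animal left out.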
